A study of Mus musculus with 6 samples.

Results

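Genes of 8 families that act on RNA were compared between splenic T cells of allogeneic and syngeneic transplant recipients. The families were chosen by symbol and are the SR proteins (Srsf), the heterogeneous nuclear ribonucleoproteins (Hnrnp), the subunits of splicing factors 3a and 3b (Sf3a and Sf3b), the Prpf genes, the proteins of small nuclear ribonucleoproteins (Snrp), the DEAD-box helicases (Ddx), the DEAH-box helicases (Dhx) and the RNA-binding motif genes with a number in their symbol (Rbm). Ddx3x and Ddx3y were left out by rule. The rule found 54 of the 8468 genes in the deposited table, and 2 of them, Rbm3-ps and Hnrnpa1l2-ps2, are processed pseudogenes. GENCODE M21 lists 155 protein-coding genes of these symbols, of which the table holds 52, and the other genes are not analysed here.

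The study measured RNA of CD3+ T cells isolated from spleens after haematopoietic stem cell transplantation (HSCT). Every host was a Balb/c mouse. The 3 libraries of the syn-HSCT group came from hosts given Balb/c donor cells, and the 3 libraries of the allo-HSCT group came from hosts given C57BL/6 donor cells, so donor strain and type of transplant changed together and cannot be told apart. The sources used here give no age, time after transplantation or pooling of animals. They do not say whether the libraries of a group came from different animals, and the p-values then cover the spread among libraries, which may be technical. The values are FPKM, which scale reads by gene length and by the library total. The recovered library totals were 15642385 to 17524496 reads, and a tested member had between 96 and 25113 reads in a library. Allo-HSCT replicate 1 stood apart, with the lowest quality weight of the 6 libraries in limma (0.160 next to 0.626 to 4.58), and results that rest on it are given with and without it. All 8 T cell markers were present, and so were markers of other cells, whose levels are given after the members.

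Splicing removes introns from precursor mRNA. It is carried out by the spliceosome, which is built from small nuclear ribonucleoproteins (snRNPs), each a small nuclear RNA held in a ring of Sm proteins with further particle-specific proteins. SR proteins and hnRNPs bind exons and introns and often act in opposite directions on the choice of splice sites. DEAD-box and DEAH-box proteins use ATP to rearrange RNA and protein complexes, and they serve splicing, ribosome assembly, mRNA export and decay, and the detection of viral RNA. T cells change the splicing of many transcripts when they are activated.

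Of 47 members with enough signal to be tested (at least 1 FPKM in 3 or more libraries), limma called 21 higher and 22 lower in allo-HSCT at an adjusted p under 0.05. The table holds almost no genes with small differences, and the adjusted p-values throughout were computed within that limit and are not error rates. Among all 5460 genes tested, 93.7% were called, 47.9% higher and 45.8% lower, so the share of members called, and their division over all families together, lie near those of the table as a whole. The genes of a family in the table often shared a direction. The table holds only some of each family, 5 of 11 annotated protein-coding Srsf genes, 4 of 20 Hnrnp, 5 of 9 Sf3, 3 of 13 Prpf, 8 of 12 Snrp, 10 of 35 Ddx, 3 of 16 Dhx and 14 of 39 Rbm, and the directions below are of these genes and not of whole families. All 8 tested Snrp genes, all 4 Srsf genes and all 4 Hnrnp genes fell, while 7 of 9 Ddx, all 3 Dhx and all 3 Prpf genes rose and none of these 3 families fell. Sf3 genes (2 higher, 2 lower, 1 not called) and Rbm genes (6 higher, 4 lower, 1 not called) were divided. The changes were of modest size: the log2 fold changes ran from -0.74 (Snrpd1) to 0.58 (Ddx60), and 0 members passed an absolute log2 fold change of 1, against 11.6% of all genes tested. In 42 of the 47 members the 3 allo-HSCT libraries lay wholly above or wholly below the 3 syn-HSCT libraries, against 91.0% of all genes tested. The 22 falls were called again whichever library was left out. The 21 rises went to between 13, without syn-HSCT replicate 2, and 23, without allo-HSCT replicate 1. The table holds smaller rises than falls: none of its 4815 genes averaging over 100 reads had a log2 ratio between -0.37 and 0.21. The counts of rises and of falls called again are therefore not comparable.

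**Figure D1:**
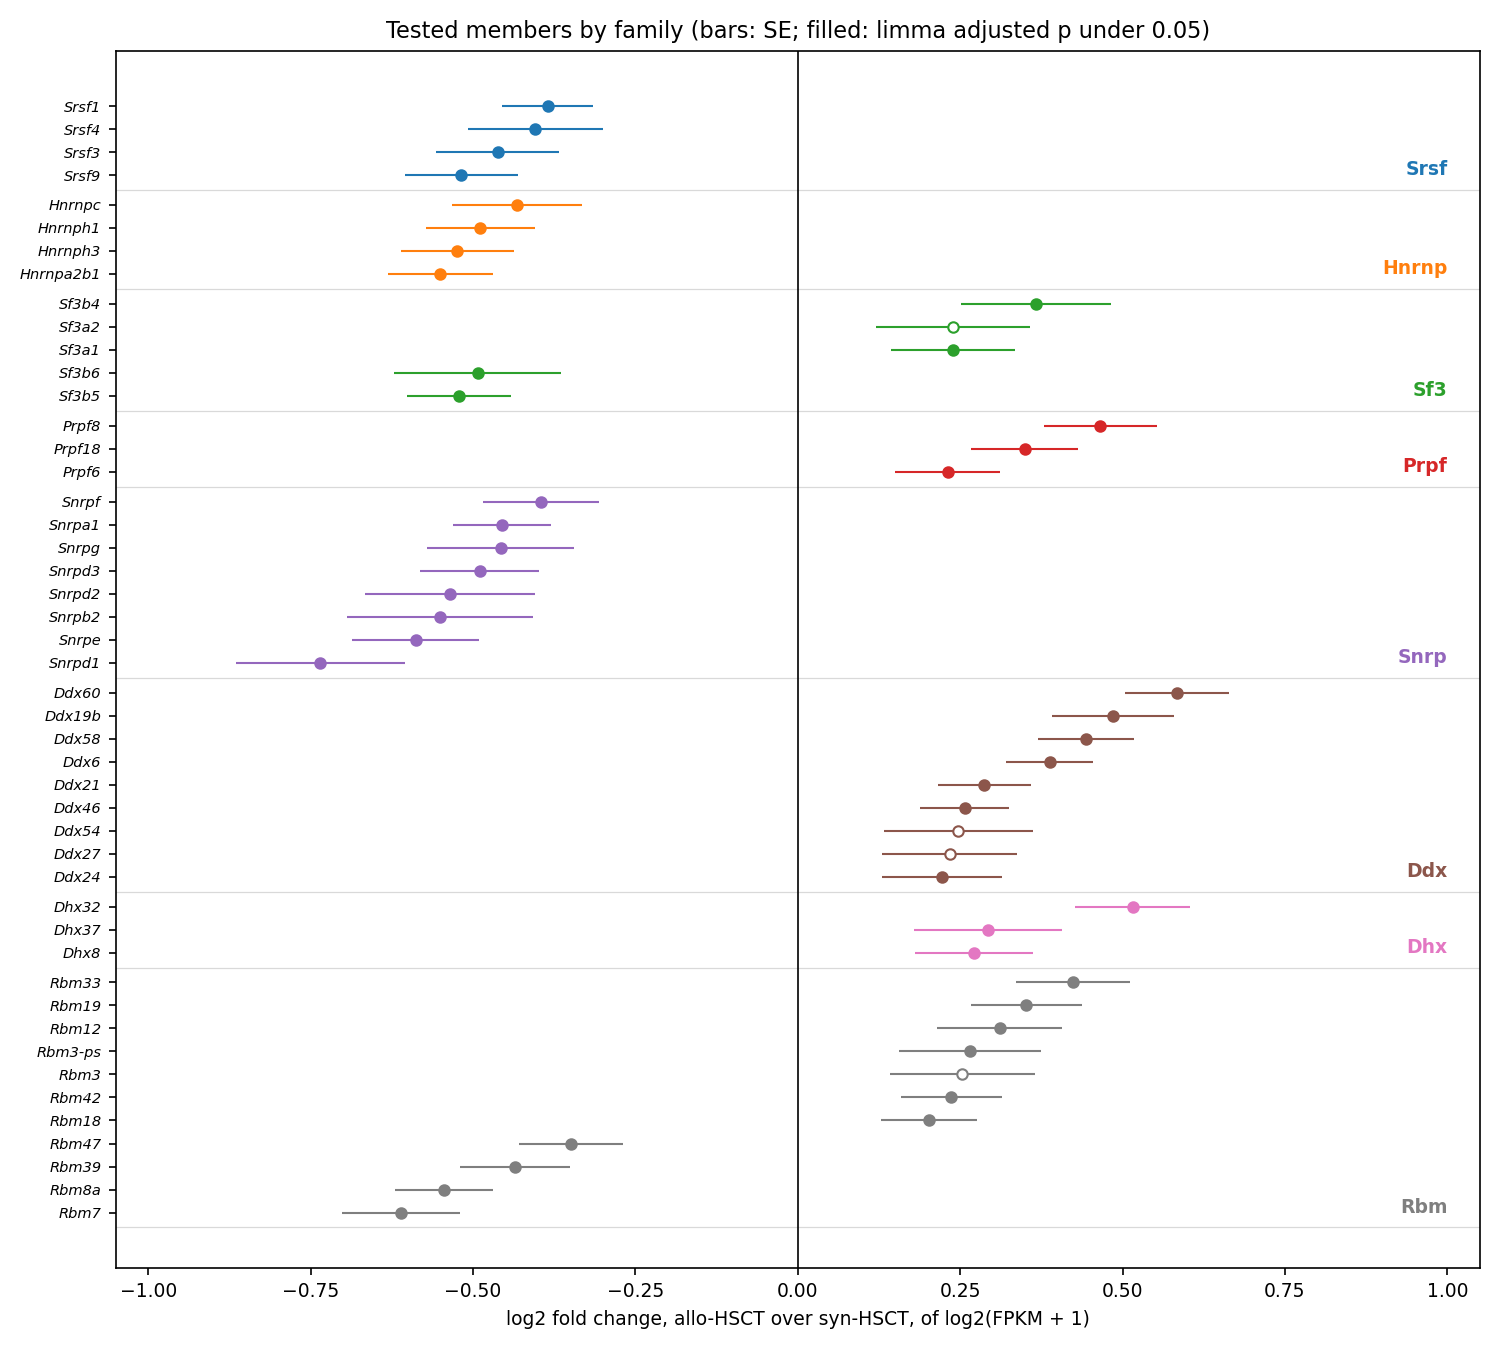
Log2 fold change of log2(FPKM + 1), allo-HSCT over syn-HSCT, for the 47 tested members by family, with SE bars from limma; filled points passed an adjusted p of 0.05. Srsf, Hnrnp and Snrp points lie left of 0, Prpf, Ddx and Dhx points lie right of 0, and Sf3 and Rbm genes lie on both sides.

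All 8 tested genes for snRNP proteins fell, with log2 fold changes from -0.74 to -0.40. The Snrp genes in the table encode 6 members of the Sm ring (Snrpd1, Snrpd2, Snrpd3, Snrpe, Snrpf and Snrpg) and a pair of proteins specific to the U2 particle (Snrpa1 and Snrpb2). Their median log2 fold change was -0.51. Over the 407 tested genes shorter than 1000 bases, the length class of 6 of the 8, it was -0.52. Over all genes tested it was 0.20, at the edge of the nearly empty stretch of log2 ratios (-0.37 to 0.21), which describes no typical gene. Summed over the 8 genes, the level was 1138, 1167 and 1176 FPKM in syn-HSCT replicates 1 to 3 and 949.6, 727 and 759.5 FPKM in allo-HSCT replicates 1 to 3. Snrpd1, whose product pairs with that of Snrpd2 in the ring, stood at 126, 126 and 138 FPKM in syn-HSCT and at 97.0, 64.7 and 74.8 FPKM in allo-HSCT. The groups did not overlap, and the fall was 1.65-fold between means of 130 ± 6.97 and 78.8 ± 16.5 FPKM (SD, n = 3 each; a log2 change of -0.74 with an SE of 0.130, limma adjusted p = 5.67e-04).

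Snrpe, an Sm protein that joins the ring together with those of Snrpf and Snrpg, measured 184, 200.4 and 194 FPKM in syn-HSCT and 147, 117 and 121 FPKM in allo-HSCT, 1.5-fold lower (a log2 change of -0.59 with an SE of 0.0979, limma adjusted p = 3.90e-04). Snrpb2 measured 71.3, 75.6 and 75.3 FPKM in syn-HSCT and 66.1, 44.0 and 43.5 FPKM in allo-HSCT. Its allo-HSCT replicate 1 lay near the syn-HSCT values while the other 2 lay well below, and the fall was 1.45-fold (a log2 change of -0.55 with an SE of 0.143, limma adjusted p = 0.00479), or -0.75 on the log2 scale without that library. The most abundant member, Snrpg, stood at 286, 301.1 and 280.0 FPKM in syn-HSCT and at 253, 188 and 195 FPKM in allo-HSCT, 1.36-fold lower (limma adjusted p = 0.00372). Snrpd3 measured 205, 192 and 202 FPKM in syn-HSCT against 161, 134 and 133 FPKM in allo-HSCT, 1.40-fold lower (limma adjusted p = 7.71e-04). In 7 of the 8 genes allo-HSCT replicate 1 lay above the mean of replicates 2 and 3 (median over the 8 genes 0.35 on the log2 scale), and Snrpa1 was the exception at -0.06. All 8 fell with any 1 library left out. Small Sm protein genes have processed copies in the genome, so reads may be split between copies.

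**Figure D2:**
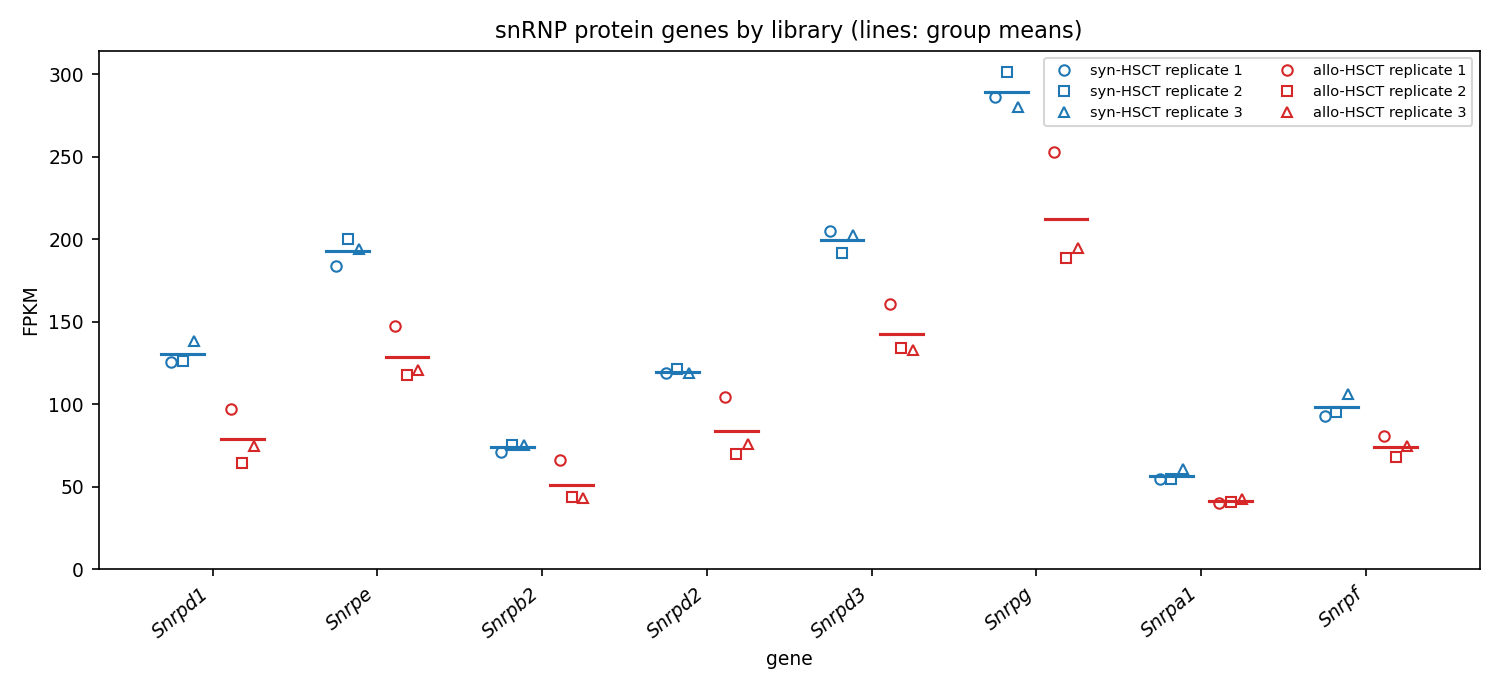
FPKM (vertical axis, from 0) of the 8 Snrp genes in each of the 6 libraries, with lines at group means. Every allo-HSCT point lies under every syn-HSCT point of the same gene, and allo-HSCT replicate 1 is the highest allo-HSCT library in 7 of the 8 genes.

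These genes are also short. Their gene lengths, recovered from the values, ran from 393 bases (Snrpg) to 1250 bases (Snrpa1), with a median of 777 bases against 3357 over all genes tested, and short genes of the table fell in general: of 407 tested genes under 1000 bases, 73.7% were called lower and 20.4% higher, while of 2215 genes of 4000 bases or more, 32.0% were lower and 62.2% higher. A smooth trend on length was then taken out of each library. This moved the median log2 fold change of all tested genes from 0.20, at the edge of the nearly empty stretch of log2 ratios, to 0.09. In that fit 1 of the 8 Snrp genes, Snrpd1, still passed (log2 fold change -0.34, limma adjusted p = 0.0085), against 38.0% of all genes called lower. The others went to between -0.23 (Snrpb2, limma adjusted p = 0.0929) and 0.08 (Snrpg, limma adjusted p = 0.308), and Snrpf and Snrpg changed sign without passing. Gene length and family thus changed together in these values. Over the 47 tested members, log2 fold change and length had a Spearman correlation of 0.63, next to 0.24 over 5453 genes tested, as a description, since the members are not independent and share libraries.

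**Figure D3:**
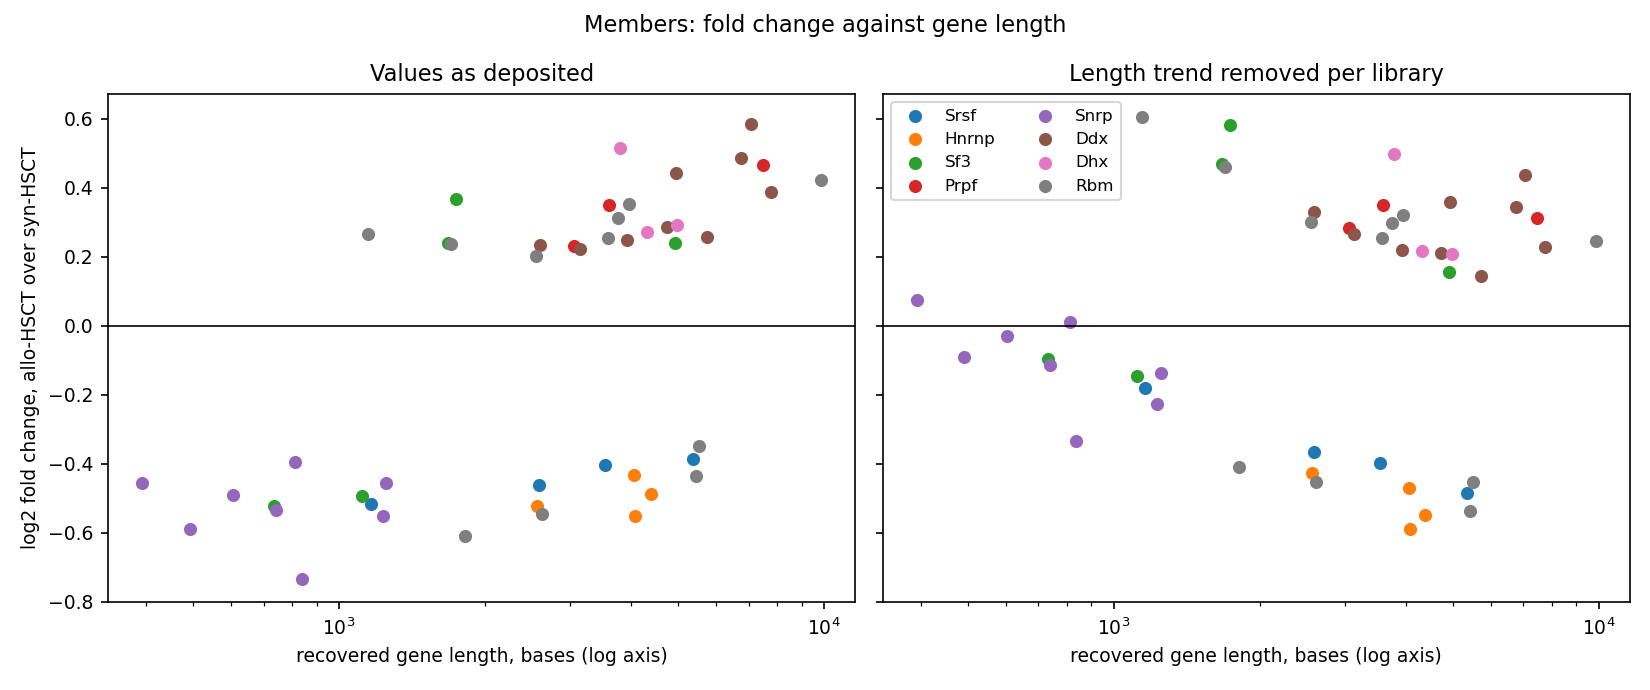
Log2 fold change (vertical axis) against recovered gene length in bases (log axis) for the 47 tested members, coloured by family, from the values as deposited (left) and after subtraction of a smooth trend on length per library (right). On the left the Snrp genes lie between -0.74 and -0.40; on the right they lie between -0.34 and 0.08, while Hnrnp, Srsf1, Srsf3, Srsf4, Rbm39 and the helicases keep their side.

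SF3A and SF3B are parts of the U2 snRNP that hold the branch site of the intron, and their subunits did not move together. Sf3b5 and Sf3b6, small subunits, fell. Sf3b6, whose product lies at the branch site adenosine, measured 114, 122 and 113 FPKM in syn-HSCT and 104, 71.1 and 75.6 FPKM in allo-HSCT, 1.39-fold lower (a log2 change of -0.49 with an SE of 0.129, limma adjusted p = 0.00496). Sf3b5 measured 97.5, 104 and 109 FPKM in syn-HSCT and 76.9, 67.9 and 70.3 FPKM in allo-HSCT, 1.44-fold lower (limma adjusted p = 2.41e-04). With lengths of 1116 and 734 bases, both lost their call with the length trend removed (limma adjusted p = 0.191 and 0.190).

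Sf3b4, which binds the pre-mRNA beside the branch site, was higher. It measured 27.8, 25.3 and 26.0 FPKM in syn-HSCT and 27.99, 37.2 and 38.7 FPKM in allo-HSCT, a 1.31-fold rise (a log2 change of 0.37 with an SE of 0.116, limma adjusted p = 0.0128). Its allo-HSCT replicate 1 lay just above the highest syn-HSCT library, and the rise missed the threshold without allo-HSCT replicate 3 (limma adjusted p = 0.0525). With a length of 1741 bases, its log2 fold change was 0.58 with the length trend removed. Sf3a1 (1.19-fold, limma adjusted p = 0.0343) was called with overlapping groups, a call lost without any 1 of allo-HSCT replicates 2 and 3 and syn-HSCT replicates 2 and 3. Sf3a2, at 37.3 ± 2.77 and 44.5 ± 7.41 FPKM (SD, n = 3), was not called (limma adjusted p = 0.0745) and passed without allo-HSCT replicate 1 (limma adjusted p = 7.18e-04). So no Sf3 gene, or up to 3, was called higher depending on the library left out. With the length trend removed Sf3a1 was not called (log2 fold change 0.16, limma adjusted p = 0.0996). In that fit Sf3a2 was called higher (log2 fold change 0.47, limma adjusted p = 0.00604).

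Promoter windows of the members were searched on both strands for 5 motifs: the ETS family motif CCGGAAG, the interferon-stimulated response element (GAAA, any 2 bases and GAAA again), the NRF1 motif (GCGC, any base and TGCGC), the CCAAT box and the TATA box (TATAAA). Copies of the ETS motif, which ETS transcription factors bind, are shown for the 3 members with 2 copies within 100 bases of the start of transcription, from RefSeq (GRCm38.p6), from 100 bases before the first transcribed base to 13 bases from it on, with CCGGAAG or its reverse complement in capitals. The lines hold Snrpb2 (chr2:143062969-143063081, plus strand), Snrpe (chr1:133610268-133610380, minus strand) and Sf3b6 (chr12:4817508-4817620, plus strand).
Snrpb2: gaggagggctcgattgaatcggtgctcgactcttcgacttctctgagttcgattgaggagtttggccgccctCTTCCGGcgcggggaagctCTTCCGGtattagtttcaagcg
Snrpe: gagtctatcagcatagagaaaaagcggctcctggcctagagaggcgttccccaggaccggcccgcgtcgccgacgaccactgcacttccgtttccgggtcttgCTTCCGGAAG
Sf3b6: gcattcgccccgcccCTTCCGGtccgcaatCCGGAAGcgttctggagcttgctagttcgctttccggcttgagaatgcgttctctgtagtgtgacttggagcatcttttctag
The copies in Snrpe overlap, since the motif is read on both strands. In windows of 300 bases, 250 of them before the start, 14 of 44 members with a window held this motif, of which 5 fell (Snrpb2, Snrpe, Snrpg, Sf3b6 and Srsf4), 6 rose (Rbm19, Rbm42, Dhx8, Dhx37, Prpf6 and Sf3a1) and 3 were not called (Sf3a2, Ddx27 and Ddx54). Of 27025 genes with a window, 9.93% held it, a background that includes noncoding genes. The NRF1 motif was in 10 of the 44 members and 5.19% of genes, the CCAAT box in 17 members and 41.1% of genes, and the TATA box in 5 members and 15.7% of genes. The match is a description, and members that held it lay on both sides.

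The Prpf genes, named for yeast precursor-RNA processing factors, rose. The 3 in the table, Prpf6, Prpf8 and Prpf18, act with the U4/U6.U5 tri-snRNP or the U5 particle. Prpf8, the large protein that cradles the catalytic RNA of the spliceosome, measured 57.5, 57.5 and 53.5 FPKM in syn-HSCT and 69.6, 83.8 and 81.0 FPKM in allo-HSCT. The groups were well apart, and the rise was 1.39-fold between 56.2 ± 2.30 and 78.2 ± 7.51 FPKM (SD, n = 3; a log2 change of 0.47 with an SE of 0.0869, limma adjusted p = 7.65e-04). Prpf8 is a long gene of 7481 bases, and with the length trend removed its log2 fold change was 0.31 (limma adjusted p = 0.00237).

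Prpf18, which acts in the last catalytic step, measured 19.9, 19.1 and 17.5 FPKM in syn-HSCT and 26.0, 22.5 and 24.4 FPKM in allo-HSCT, 1.29-fold higher (a log2 change of 0.35 with an SE of 0.0824, limma adjusted p = 0.00288). Prpf6, a bridge between the U5 and U4/U6 particles, measured 30.6, 30.3 and 29.8 FPKM in syn-HSCT and 32.2, 36.9 and 38.1 FPKM in allo-HSCT, 1.18-fold higher (a log2 change of 0.23 with an SE of 0.0806, limma adjusted p = 0.0201). Its groups did not overlap, but the call was lost without allo-HSCT replicate 2 or 3 or syn-HSCT replicate 2 or 3 (limma adjusted p = 0.0561 to 0.092).

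All 4 tested SR protein genes fell. Srsf3, the most abundant of them and the smallest SR protein, measured 184, 189 and 179.5 FPKM in syn-HSCT and 153, 122 and 127 FPKM in allo-HSCT, 1.37-fold lower (a log2 change of -0.46 with an SE of 0.0946, limma adjusted p = 0.00131). Srsf1, which favours the use of nearby splice sites when it binds exons, was tight within groups, at 72.3, 67.6 and 73.3 FPKM in syn-HSCT and 54.6, 53.6 and 54.4 FPKM in allo-HSCT. Its fall was 1.31-fold, from 71.1 ± 3.02 to 54.2 ± 0.520 FPKM (SD, n = 3; a log2 change of -0.39 with an SE of 0.0699, limma adjusted p = 6.56e-04).

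Srsf4 measured 45.7, 49.0 and 55.0 FPKM in syn-HSCT and 32.4, 40.9 and 39.4 FPKM in allo-HSCT, 1.33-fold lower (limma adjusted p = 0.00477). Srsf9 measured 49.9, 44.1 and 48.7 FPKM in syn-HSCT and 29.7, 34.0 and 35.2 FPKM in allo-HSCT, 1.44-fold lower (a log2 change of -0.52 with an SE of 0.0874, limma adjusted p = 4.22e-04). In neither gene did the groups overlap, as in 91.0% of all genes tested. In contrast to the Snrp genes, 3 of the 4 fell with the length trend removed (Srsf1 -0.49, Srsf4 -0.40 and Srsf3 -0.37 on the log2 scale), and Srsf9, the shortest at 1162 bases, did not pass (limma adjusted p = 0.119).

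All 4 tested Hnrnp genes fell as well, with gene lengths of 2562 to 4396 bases. Hnrnpa2b1, which binds many nuclear and cytoplasmic RNAs and was the most abundant member of all families, measured 335, 351 and 363 FPKM in syn-HSCT and 255, 232 and 229 FPKM in allo-HSCT. The fall was 1.47-fold between 350.0 ± 14.1 and 239 ± 14.2 FPKM (SD, n = 3; a log2 change of -0.55 with an SE of 0.0809, limma adjusted p = 1.78e-04), and its log2 fold change was -0.59 with the length trend removed. Hnrnph1, a binder of runs of G, measured 239, 249 and 281 FPKM in syn-HSCT and 185, 179 and 181 FPKM in allo-HSCT, 1.41-fold lower (a log2 change of -0.49 with an SE of 0.0835, limma adjusted p = 4.57e-04).

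Its relative Hnrnph3 stood about an order of magnitude lower, at 22.9, 23.7 and 26.0 FPKM in syn-HSCT and 15.4, 18.2 and 16.0 FPKM in allo-HSCT, with a fall of 1.46-fold (log2 fold change -0.52, limma adjusted p = 3.82e-04). Hnrnpc, which binds runs of U, measured 112, 113 and 125 FPKM in syn-HSCT and 99.7, 79.9 and 80.4 FPKM in allo-HSCT, 1.35-fold lower (log2 fold change -0.43, limma adjusted p = 0.00261). In none of the 4 genes did the groups overlap, as in 91.0% of all genes tested. All 4 were called lower under each alternative run, with a median log2 fold change of -0.51 before and after the length trend was removed. The rule also took Hnrnpa1l2-ps2, a pseudogene below the filter.

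**Figure D4:**
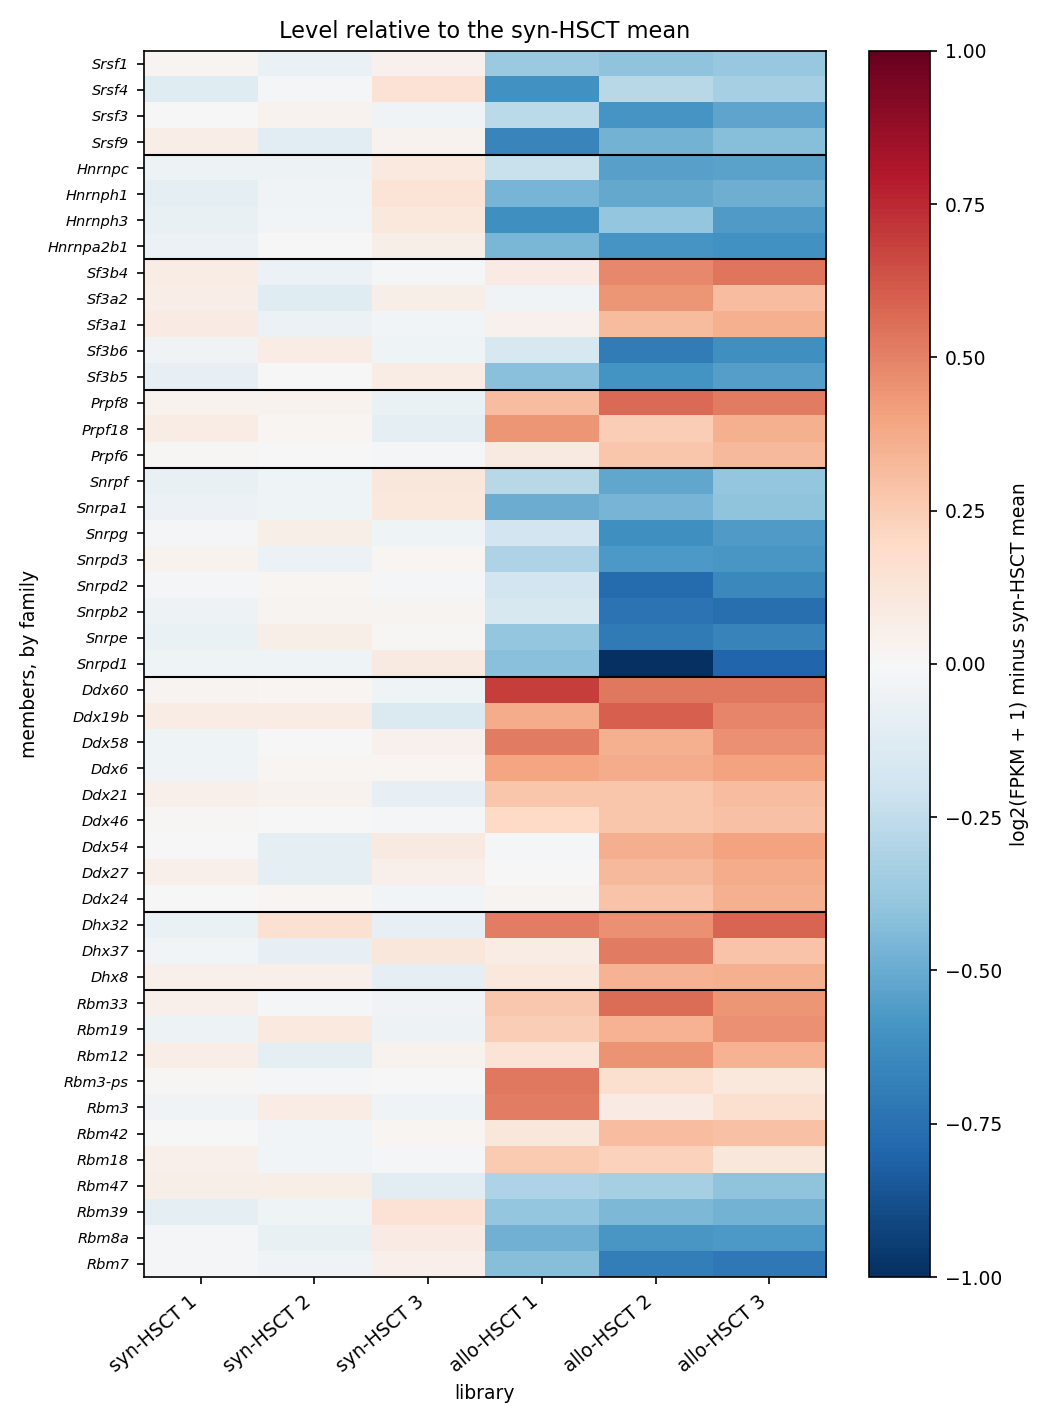
Level of each tested member in each library as log2(FPKM + 1) minus the mean of the 3 syn-HSCT libraries (blue lower, red higher), with members in rows by family. The 3 syn-HSCT columns stay near 0. Allo-HSCT replicate 1 is paler than the other 2 allo-HSCT libraries in many members. Among them are most Snrp genes, Sf3b6, Sf3b4, Sf3a2, Sf3a1, Ddx54, Ddx27 and Ddx24. By FPKM, allo-HSCT replicate 1 lay nearer the syn-HSCT mean than both others in 35 of the 47 members. The same held in 3154 of 5460 genes tested.

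The DEAD-box helicases in the table were higher in allo-HSCT, with 7 of 9 tested called and all 9 log2 fold changes above 0 (0.22 to 0.58, median 0.29). Of all genes tested, 47.9% were called higher. The 9 genes are long, with a median of 4945 bases. Tested genes of 4000 bases or more had a nearby median log2 fold change of 0.27, and 62.2% of them were called higher. Of the list of nucleic acid sensors the table holds Ddx60, Ddx58 and Ddx21, and all 3 rose. Ddx60, an interferon-induced helicase, had the largest rise of any tested member. It measured 4.53, 4.49 and 4.26 FPKM in syn-HSCT and 7.78, 6.83 and 6.82 FPKM in allo-HSCT, 1.61-fold higher (a log2 change of 0.58 with an SE of 0.0801, limma adjusted p = 1.17e-04). Ddx58, which encodes the cytoplasmic RNA sensor RIG-I, measured 19.4, 20.02 and 20.6 FPKM in syn-HSCT and 29.1, 25.9 and 27.8 FPKM in allo-HSCT, 1.38-fold higher (a log2 change of 0.44 with an SE of 0.0743, limma adjusted p = 4.03e-04). Groups did not overlap in both genes, as in 91.0% of all genes tested, and both were called under each alternative run.

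Of the 44 members with a promoter window, Ddx60 and Ddx58 held the interferon-stimulated response element. With 2 of 44 members next to 3.99% of 27025 genes, the share is near the background. They are shown because these genes are known to answer to interferon, over the same stretch around the start as the ETS copies above, with the motif in capitals. Ddx60 is at chr8:61927987-61928099 on the plus strand and Ddx58 at chr4:40239813-40239925 on the minus strand (RefSeq, GRCm38.p6).
Ddx60: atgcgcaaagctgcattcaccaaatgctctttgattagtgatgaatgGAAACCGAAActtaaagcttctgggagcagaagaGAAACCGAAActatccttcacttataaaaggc
Ddx58: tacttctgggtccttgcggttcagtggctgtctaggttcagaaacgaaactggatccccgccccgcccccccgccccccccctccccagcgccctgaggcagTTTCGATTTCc
Ddx60 holds 2 copies on its own strand before the start, and Ddx58 holds 1 copy on the opposite strand within the first transcribed bases. A match shows the letters and not that a factor was bound.

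Helicases of mRNA export and decay rose too. Ddx19b, which releases mRNA at the nuclear pore, measured 6.65, 6.63 and 5.55 FPKM in syn-HSCT and 8.37, 9.99 and 9.19 FPKM in allo-HSCT, 1.46-fold higher (a log2 change of 0.49 with an SE of 0.0945, limma adjusted p = 9.76e-04). Ddx6, a core factor of mRNA decay and translational repression, was tight within groups, at 41.7, 43.5 and 43.6 FPKM in syn-HSCT and 56.6, 55.9 and 56.9 FPKM in allo-HSCT, 1.32-fold higher (a log2 change of 0.39 with an SE of 0.0673, limma adjusted p = 5.00e-04). Both genes are long, at 6750 and 7764 bases, and both were called with the length trend removed (log2 fold change 0.35 and 0.23).

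Of 5 tested helicases listed for ribosome assembly, which starts in the nucleolus, 3 rose (Ddx21, Ddx24 and Dhx37) and 2 were not called. Ddx21, which is also listed as a sensor and was the most abundant of the table's Ddx genes, measured 64.7, 63.9 and 58.8 FPKM in syn-HSCT and 75.8, 76.0 and 77.3 FPKM in allo-HSCT, 1.22-fold higher (a log2 change of 0.29 with an SE of 0.0719, limma adjusted p = 0.00397). Ddx24 measured 50, 50.7 and 49.1 FPKM in syn-HSCT and 50.8, 61.1 and 64.0 FPKM in allo-HSCT, 1.17-fold higher (a log2 change of 0.22, limma adjusted p = 0.0413). Its allo-HSCT replicate 1 lay only just above the syn-HSCT libraries, and the call was lost without any 1 of the other 5 libraries (limma adjusted p = 0.0846 to 0.170). Ddx27 and Ddx54 were not called (limma adjusted p = 0.0515 and 0.0596). In both, allo-HSCT replicate 1 lay within the syn-HSCT range, at 32.8 FPKM for Ddx27 and 37.0 FPKM for Ddx54, and without it both passed (limma adjusted p = 4.71e-04 and 2.64e-04).

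The spliceosome helicases in the table were Ddx46, which acts when the U2 particle joins the intron, and Dhx8, which frees the finished mRNA from the spliceosome. Ddx46 measured 39.7, 39.6 and 38.9 FPKM in syn-HSCT and 45.4, 47.9 and 48.4 FPKM in allo-HSCT, 1.20-fold higher with groups that did not overlap (a log2 change of 0.26 with an SE of 0.0682, limma adjusted p = 0.00545). Dhx8 measured 16.5, 16.6 and 14.8 FPKM in syn-HSCT and 17.3, 20.6 and 20.7 FPKM in allo-HSCT, 1.22-fold higher (a log2 change of 0.27 with an SE of 0.0904, limma adjusted p = 0.0163). Of the other DEAH-box genes, Dhx32 rose 1.52-fold, from 4.20, 5.03 and 4.13 FPKM in syn-HSCT to 6.75, 6.45 and 7.14 FPKM in allo-HSCT (a log2 change of 0.52 with an SE of 0.0884, limma adjusted p = 4.64e-04). Dhx37, a factor of small ribosomal subunit assembly, measured 6.48, 6.20 and 7.23 FPKM in syn-HSCT and 7.02, 9.91 and 8.31 FPKM in allo-HSCT, 1.27-fold higher with overlapping groups (limma adjusted p = 0.0314). The count of 3 Dhx genes called higher fell to 1, Dhx32, without allo-HSCT replicate 2 or without allo-HSCT replicate 3.

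**Figure D5:**
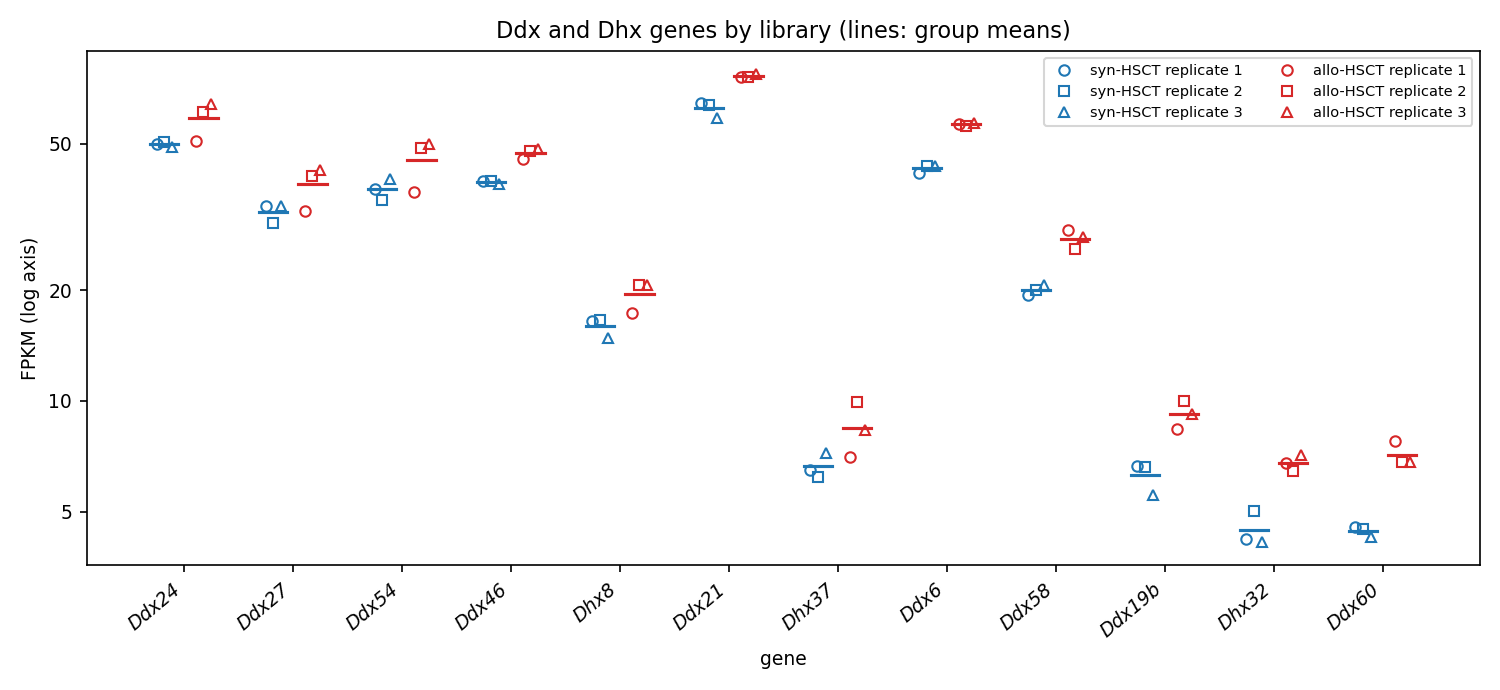
FPKM (log axis) of the 12 tested Ddx and Dhx genes in each of the 6 libraries, with lines at group means. The mean of allo-HSCT lies above that of syn-HSCT in each gene, and the points of the groups overlap in Ddx27, Ddx54 and Dhx37.

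The Rbm genes share an RNA-binding domain rather than a role, and they were divided. Of 11 tested, 4 fell. Rbm7, which guides the nuclear exosome to RNA for decay, measured 89.9, 88.5 and 94.5 FPKM in syn-HSCT and 67.5, 55.9 and 55.0 FPKM in allo-HSCT, 1.53-fold lower (a log2 change of -0.61 with an SE of 0.0913, limma adjusted p = 1.99e-04). Rbm8a, the Y14 protein of the exon junction complex that marks spliced mRNA, measured 45.4, 43.3 and 48.5 FPKM in syn-HSCT and 32.5, 30.2 and 30.4 FPKM in allo-HSCT, 1.47-fold lower (a log2 change of -0.54 with an SE of 0.0749, limma adjusted p = 1.18e-04). Rbm39, a splicing factor related to U2AF, measured 156, 161 and 184 FPKM in syn-HSCT and 127, 122 and 119.8 FPKM in allo-HSCT, 1.36-fold lower (a log2 change of -0.44 with an SE of 0.0844, limma adjusted p = 9.48e-04).

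Rbm47, known as a partner of the editing enzyme APOBEC1, was low and fell from 1.84, 1.84 and 1.53 FPKM to 1.20, 1.18 and 1.07 FPKM, 1.51-fold (limma adjusted p = 0.00245). Groups were apart in all 4 genes, as in 91.0% of all genes tested. Each of the 4 was called lower under every alternative that tested it. With a minimum mean of 5 FPKM, Rbm47 was not tested.

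Of the Rbm genes, 6 rose. Rbm33 measured 23.5, 22.4 and 22.0 FPKM in syn-HSCT and 27.5, 33.9 and 31.1 FPKM in allo-HSCT, 1.36-fold higher (a log2 change of 0.42 with an SE of 0.0875, limma adjusted p = 0.00137). Rbm19, a nucleolar factor of ribosome assembly, measured 6.73, 7.58 and 6.75 FPKM in syn-HSCT and 8.51, 9.21 and 9.99 FPKM in allo-HSCT, 1.32-fold higher (a log2 change of 0.35 with an SE of 0.0856, limma adjusted p = 0.00342). Rbm12 measured 8.53, 7.48 and 8.30 FPKM in syn-HSCT and 9, 11.4 and 10.6 FPKM in allo-HSCT, 1.27-fold higher (limma adjusted p = 0.0118, and 0.0554 without syn-HSCT replicate 2). Without that library 2 of the 6 rises, those of Rbm33 and Rbm19, were called. Rbm42 and Rbm18 rose 1.18-fold and 1.16-fold (limma adjusted p = 0.0154 and 0.0252).

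Rbm3, a cold-inducible RNA-binding protein and the most abundant Rbm gene that was not lower, was not called. It measured 152, 164 and 151 FPKM in syn-HSCT and 223, 165 and 174 FPKM in allo-HSCT (a log2 change of 0.25 with an SE of 0.112, limma adjusted p = 0.0511). Its pseudogene Rbm3-ps, with which it can share reads, was called at 9.95 ± 0.108 and 12.3 ± 2.20 FPKM (SD, n = 3; limma adjusted p = 0.0392), and in both allo-HSCT replicate 1 stood highest, by 0.39 and 0.40 on the log2 scale over the mean of the other 2. Without it the log2 fold changes were 0.12 and 0.13, and Rbm3-ps was not called (limma adjusted p = 0.0606). Nor was Rbm3-ps called without any 1 of the syn-HSCT libraries (limma adjusted p = 0.0768 to 0.0902) or with no filter (limma adjusted p = 0.0614). With the length trend removed it was called (log2 fold change 0.61, limma adjusted p = 1.26e-04).

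The 7 members under the filter were Srsf12, Hnrnpa1l2-ps2, Ddx25, Rbm11, Rbm20, Rbm24 and Rbm44, with between 3 and 57 reads in a library. Fitted with no filter, Srsf12 went from 0.366, 0.435 and 0.487 FPKM to 0.864, 1.06 and 0.953 FPKM, against the direction of the other SR genes (limma adjusted p = 5.30e-04). Rbm44 was higher as well, at 0.121, 0.142 and 0.0954 FPKM and 0.456, 0.334 and 0.304 FPKM (limma adjusted p = 0.00163). The other 5 were not called in that fit (limma adjusted p = 0.0848 to 0.803), and their groups overlapped.

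Other genes of RNA processing, from 10 lists of splicing, export, decay and helicase genes without any member, were divided. Of 65 tested, 34 were higher and 30 lower, next to 47.9% and 45.8% of all genes tested. The Lsm genes, most of which form rings like those of the Sm proteins, fell in 5 of 6 tested, led by Lsm3 (1.68-fold) and Lsm7 (1.66-fold). Lsm14b, which lies outside those rings, rose. Of 8 further snRNP proteins 5 fell, among them Zmat2 (1.46-fold), and 3 rose, led by Snrnp200, the U5 helicase that unwinds U4 from U6, at 25.6 ± 2.75 and 40.4 ± 1.59 FPKM (SD, n = 3; 1.58-fold, limma adjusted p = 1.15e-04). Of 9 splicing regulators 8 fell, led by Qk (1.64-fold) and Ybx1 (1.55-fold), and Pcbp4 rose.

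Of 9 SR-related proteins and SR kinases 7 rose, led by Rnps1, a cofactor of the exon junction complex, at 21.7 ± 0.633 and 44.2 ± 4.88 FPKM (SD, n = 3; 2.04-fold, limma adjusted p = 6.82e-06), and 2 fell, Tra2a (1.46-fold) and Clk2. Of 9 helicases outside the Ddx and Dhx symbols 8 rose, among them Znfx1 (1.67-fold), and Eif4a1, the translation initiation helicase, fell. Of 12 genes of the exon junction, nonsense-mediated decay and export 5 rose and 7 fell, led by Ncbp2 (1.62-fold) and Thoc7 (1.59-fold). Of 5 genes of cleavage and polyadenylation 4 rose, led by Clp1 (1.31-fold) and Papolg (1.25-fold). The shorter lists were those of U2AF and its partners (2 higher and 1 lower of 3, Sugp1 1.44-fold higher and U2af1 1.33-fold lower), of the catalytic step complexes (Aqr 1.52-fold and Mfap1a 1.43-fold higher) and of snRNP assembly (Gemin6 1.62-fold lower and Prmt5 1.18-fold higher). With the length trend removed 24 of the 65 were called higher and 19 lower, next to 41.7% and 38.0% of all genes. In that fit 3 Lsm genes were lower in place of 5, and of the further snRNP proteins 1 was lower in place of 5 and 2 higher in place of 3. Of the SR-related genes 4 were higher in place of 7 and 1 lower in place of 2. Of the exon junction, decay and export genes 3 were higher in place of 5 and 4 lower in place of 7. The helicases had 6 higher in place of 8, and the cleavage and polyadenylation genes 2 in place of 4, while of U2AF and its partners 0 were lower in place of 1. U2af1 (limma adjusted p = 0.632) and Papolg (limma adjusted p = 0.199) did not pass.

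The libraries held RNA of genes listed as markers of other cells, and many of these differed between the groups. All 8 T cell markers rose, with a summed level of 817 to 865 FPKM in syn-HSCT and 1429 to 1566 FPKM in allo-HSCT. Of 7 macrophage and monocyte markers in the table (of 8 listed) 6 fell and 1 rose, with sums of 1743 to 2288 and 542 to 766 FPKM. Granulocyte markers (8 of 11) had 3 higher and 5 lower, with sums of 1629 to 1653 and 821 to 944 FPKM. All 10 cell cycle genes in the table (of 18) fell, with sums of 794 to 842 and 535 to 577 FPKM. Of the smaller lists, the 3 tested B cell and 3 plasma cell markers rose, erythroid markers had 5 higher and 1 lower of 8, dendritic cell markers 1 higher and 4 lower of 5, and NK cell markers 3 higher and 2 lower of 5. No marker in the table was at 0 in all libraries. The sources used here give no purity or cell counts, so marker RNA alone does not show that these cells were present. The part of such cells in the members' differences was not tested, and a lower level from fewer cells of a type cannot be told apart from less RNA per cell.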

How the data were processed

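Each gene has 1 deposited value in each library, in a unit that the header does not name. The values, times gene length, were whole multiples of 1 step per library, so they are taken as FPKM that the authors computed. Whole reads came out for 8444 of 8468 genes (99.7%), at most 0.0087 from a whole number, and for every member. Each gene length was searched for so that all libraries gave whole reads within a small tolerance. That closeness is therefore set by the search and is not a separate check. Library totals and gene lengths came from the deposited values. The submitters' processing notes name limma without a role. Aligner, genome build and strand setting were not given in the sources used here. Of all reads of a library, 42.1% to 45.4% lie in the table. None of its 4815 genes averaging over 100 reads had a log2 ratio between -0.37 and 0.21, so it appears limited to genes that differed. Counts describe this table only. The adjusted p-values were computed on these genes from the same libraries, so they share that selection and are not error rates.

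The 5460 genes that reached 1 FPKM in 3 libraries entered limma 3.58.1, run in R 4.3.3 on log2(FPKM + 1). The fit used the 6 libraries, no covariate and a trended prior variance, and Benjamini-Hochberg adjustment ran over all 5460 genes. This scale understates changes of low genes; folds are ratios of mean FPKM. The test was checked on simulated counts in which most genes did not differ, unlike in this table. That check does not cover the selection of the table's genes. Members and lists were chosen with earlier results of these data known. Named members are, per family, the 3 largest rises and falls with groups that do not overlap, the 2 highest levels, members alone in a direction, and sensing and spliceosome helicases; up to 2 genes are named per other list, and 1 named by this rule is not reported here. Members described outside this rule (among them Hnrnpc, Sf3a1, Sf3a2, Ddx6, Ddx27, Ddx54, Rbm47, Rbm42, Rbm18 and Rbm3-ps) were picked after their values were seen. Alternatives were equal medians, quantile normalization, a pseudocount of 0.1, no filter, a mean of at least 5 FPKM, quality weights, a replicate block, removal of a length trend (lowess span 0.5) and leaving out each library. In GENCODE M21, 16 of 54 members overlap another gene's exons, 5 of them (Rbm12, Sf3a2, Rbm18, Snrpd3 and Hnrnph3) a gene of this table; without a stated strand setting their reads may be shared.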

Additional observations from a re-analysis of the deposited data

How the results depend on the processing

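Of the 43 members called, 23 (11 higher and 12 lower) were called in the same direction under every alternative that tested them. Removing the length trend changed most: 12 members were called lower in place of 22, 1 Snrp gene in place of 8 and 0 Sf3 genes in place of 2. Of other RNA processing genes 24 were higher in place of 34 and 19 lower in place of 30. Calls were also fewer over all genes, with 41.7% higher in place of 47.9% and 38.0% lower in place of 45.8%. Snrpf (log2 fold change 0.0096) and Snrpg (0.075) changed sign without passing. The members that lost their calls include the shortest ones. With no filter 1 Srsf gene, Srsf12, was called higher where it was not tested before. Leaving out 1 library gave 13 to 23 members higher, 0 to 3 Sf3, 1 to 3 Dhx and 2 to 5 Rbm genes higher; fewer libraries enter these fits, and the cause of each loss was not tested. Deviations of same-numbered libraries had correlations of -0.02, -0.20 and 0.08 over 5460 genes, and those of differently numbered libraries ran from -0.17 to 0.24. With 3 libraries per group, these values cannot decide whether the numbers pair the libraries. With the replicate block 22 members were called higher and 22 lower. Depth limits the 7 untested members, with at most 57 reads in a library.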

Other observations

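Rbm8a and Magoh encode the pair of proteins that bind each other in the core of the exon junction complex. Magoh, named after its values were seen, stood at 135, 140.4 and 129 FPKM in syn-HSCT and at 115, 80.7 and 82.7 FPKM in allo-HSCT, 1.45-fold lower (a log2 change of -0.55 with an SE of 0.126, limma adjusted p = 0.00233), close to the -0.54 of Rbm8a. Its copy Magohb was lower as well, at 20.4 ± 2.31 and 13.5 ± 0.864 FPKM (SD, n = 3; log2 fold change -0.56, limma adjusted p = 3.89e-04). With the length trend removed, Rbm8a (-0.45) and Magohb (-0.22, limma adjusted p = 0.0433) were still called, and Magoh was not (-0.12, limma adjusted p = 0.218).

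Ifih1, which encodes the RNA sensor MDA5, a relative of RIG-I outside the Ddx and Dhx symbols, was also named after its values were seen. It measured 8.69, 8.60 and 9.12 FPKM in syn-HSCT and 11.6, 12.1 and 11.8 FPKM in allo-HSCT, 1.35-fold higher (a log2 change of 0.39 with an SE of 0.0710, limma adjusted p = 6.53e-04), beside 1.38-fold for Ddx58 and 1.61-fold for Ddx60. The 3 genes did not overlap between the groups, as in 91.0% of all genes tested.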
